A study of Danio rerio with 4 samples.

Results

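The genes of claudins, the tight junction scaffolds and occludins, and connexins were described in cells sorted from the adult zebrafish brain. They were found by symbol, as every gene ID whose name begins with cldn, tjp and a digit, ocln, or one of the connexin prefixes (gja to gje and cx, each with a digit), whatever the case. The IDs ENSDARG00000043716 (CLDN5) and ENSDARG00000041799 (GJA1) were left out by the rule, which left 81 of the 32105 gene IDs. The 81 were 38 claudins, 2 claudin-domain genes that the same prefix catches, 7 scaffold and occludin genes and 34 connexins. The rule uses no measured value, although earlier results of these data were known when the genes were chosen.

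All 4 samples form 1 group: wildtype adult fish carrying the transgene pdgfr beta egfp, with EGFP-positive cells taken by fluorescence from Liberase-treated brains. EGFP driven by pdgfrb sequence marks pericytes, which wrap capillaries, but also other cells in which that sequence is active. Each library is a pool of 6 brains with RNA amplified before sequencing, and the text names a triplicate although 4 samples are listed. Titles say pericyte while a cell type tag says muLEC. Column headings of the count table name the libraries B1 to B4 and tie none of them to a numbered sample, and their order has no meaning. The labels state no difference between the samples beyond separate pools of brains. Every p-value thus rests on variation among the 4 pools, part of which may be technical.

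Library totals ran from 33270774 to 40441253 counts, and 3 counts correspond to at most 0.0879 CPM (the read count scaled to library size), a floor for counting error only. B1 stood apart from the others, with 12.4% of all tested genes at 3 times the median of the other libraries or more. Of the 12 pericyte markers 8 of 11 tested lay above the median gene (against 36.8% of all tested genes) and 1 below (against 33.2%), with a summed level of 823.5 to 2131 CPM. Radial glia markers summed to 24117 to 50247 CPM and oligodendrocyte markers to 1383 to 3978 CPM. Fibroblast markers summed to 1200 to 5575 CPM, more than the pericyte markers in every library but B1. Of the 10 tested, 8 lay above the median gene and 0 below (against the same shares of all tested genes). In bulk libraries, fewer cells of a type and less RNA per cell cannot be told apart.

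Claudins are tetraspan membrane proteins whose strands seal the space between neighbouring cells, some as barriers and some as ion pores. Their tails bind the zonula occludens scaffolds encoded by the tjp genes, which tie the strands and occludin to actin. Connexins assemble as hexamers into channels that dock between cells as gap junctions. In the brain, claudin 5 is known for the blood-brain barrier of endothelium, claudin 11 for myelin and the arachnoid barrier in mammals, and connexin 43, the product of GJA1, for coupling of astrocytes.

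Of the 81 genes 33 reached 1 CPM in at least 2 libraries (40.7%, against 53.8% of all IDs) and were tested. Each level was compared with the median level of all 17283 tested genes, 12.6 CPM, called the reference level here. By edgeR's quasi-likelihood test with Benjamini-Hochberg adjustment over all tested genes, 9 of the 33 lay above it (27.3%, against 36.8% of all tested genes) and 15 below it (45.5%, against 33.2%), and 9 passed in neither direction. The 9 above were the same number under every alternative tried, but those with other count minimums, DESeq2 or voom kept the reference level of 12.6 CPM. By family, 5 of 15 tested claudins lay above and 5 below, 3 of 5 scaffold and occludin genes above and 2 below, and 1 of 11 connexins above and 8 below (5 below without B2, and 5 without B3). Both claudin-domain genes passed in neither direction (edgeR adjusted p = 0.429 and 0.509). The median over the 33 was a log2 level of -1.03, against 0 over all tested genes by construction. These levels are read counts without correction for transcript length, which was not available here. A long transcript may yield more counts, which was not tested, and the order of genes is an order of counts. The plot of fitted levels shows the split by family.

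**Figure D1:**
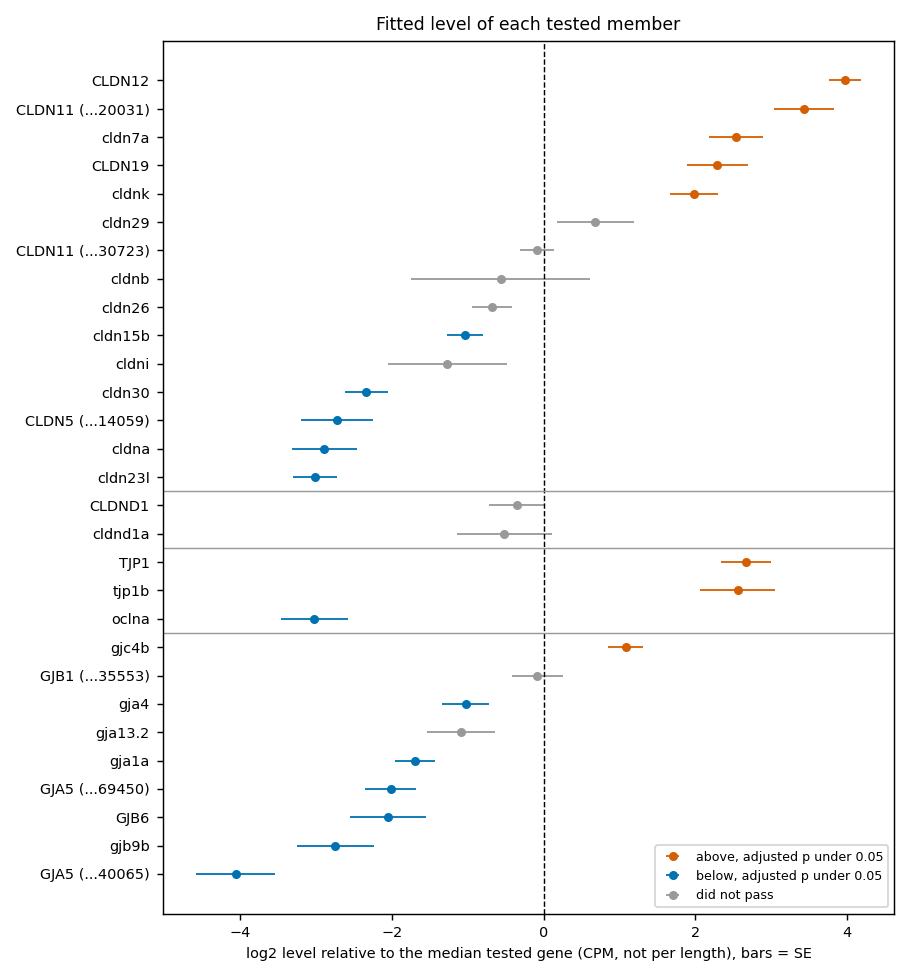
Fitted log2 level of 29 tested genes relative to the reference level of 12.6 CPM (dashed line), with standard errors as bars and the families separated by grey lines. Orange points passed above (8 genes) and blue points below (12 genes) at an edgeR adjusted p under 0.05. The scaffolds TJP1 and tjp1b lie to the right and all connexins drawn except gjc4b lie at or left of the line.

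CLDN12 (ENSDARG00000003927) had the highest count of the claudins kept by the rule, which leaves out CLDN5 (ENSDARG00000043716). Its product lacks the tail motif by which most claudins bind the scaffolds. It stood at 205 CPM in B1, 166 CPM in B2, 188 CPM in B3 and 238 CPM in B4. The 4 libraries were close to each other, with a mean of 199 ± 30.4 CPM (SD, n = 4, as for all means below). The log2 level was 3.98 ± 0.21 (SE), with an edgeR adjusted p of 5.75e-07. It made up 32.6 ± 3.98% of the summed CPM of the claudins and claudin-domain genes kept.

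CLDN11 came in 2 copies. For ENSDARG00000020031 the level was 45.4 CPM in B1, 143 CPM in B2, 96.3 CPM in B3 and 260 CPM in B4, highest in B4 and lowest in B1. The mean was 136 ± 91.7 CPM, and the log2 level of 3.43 ± 0.40 lay above the reference level (edgeR adjusted p = 3.6e-05). The second copy, ENSDARG00000030723, was at 8.47 CPM in B1, 14.8 CPM in B2, 11.8 CPM in B3 and 12.4 CPM in B4. It varied little and did not pass at a log2 level of -0.09 ± 0.23 (edgeR adjusted p = 0.742). Reads of near-identical stretches may have been split between gene copies, so the division between copies sharing a symbol is uncertain, here and for 15 of the 81 IDs in all.

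The epithelial claudin cldn7a (ENSDARG00000036376) stood at 22.8 CPM in B1, 74.2 CPM in B2, 109 CPM in B3 and 86.4 CPM in B4. B1 was the lowest, and the mean was 73.2 ± 36.6 CPM at a log2 level of 2.53 ± 0.36 (edgeR adjusted p = 0.000209). Its second copy cldn7b showed another order, at 0.762 CPM in B1, 5.74 CPM in B2, 0.140 CPM in B3 and 0.2503 CPM in B4, and only B2 reached 1 CPM, so it was not tested. The markers of ciliated ependyma summed to 229 CPM in B1, 301 CPM in B2, 389 CPM in B3 and 309 CPM in B4, the same order of libraries as cldn7a, and 10 of 10 of them were highest in B3, none at 0. The sum of the epithelial list, at 338 to 651 CPM, had the order of cldn7a too. The keratin genes krt8 (173 to 345 CPM) and krt18a.1 (77.9 to 276 CPM) carried that sum. Of its other genes krt4, epcam and cdh1 were highest in B2, and krt5 and krt91 in B1. The part of either list in the level of cldn7a was not tested. The sums of the other cell type lists had other orders of libraries.

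CLDN19 (ENSDARG00000044569), known in mammals from Schwann cells and kidney tubules, was at 137 CPM in B1, 41.8 CPM in B2, 37.0 CPM in B3 and 31.5 CPM in B4. B1 was far above the others, and the mean of 61.8 ± 50.4 CPM was 36.7 without B1. The log2 level of 2.29 ± 0.40 lay above the reference level (edgeR adjusted p = 0.000713). The claudin of zebrafish myelinating glia, cldnk (ENSDARG00000042357), had 56.2 CPM in B1, 83.1 CPM in B2, 36.4 CPM in B3 and 24.2 CPM in B4. B2 was the highest and B4 the lowest, with a mean of 49.9 ± 25.7 CPM and a log2 level of 1.98 ± 0.32 (edgeR adjusted p = 0.000593).

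**Figure D2:**
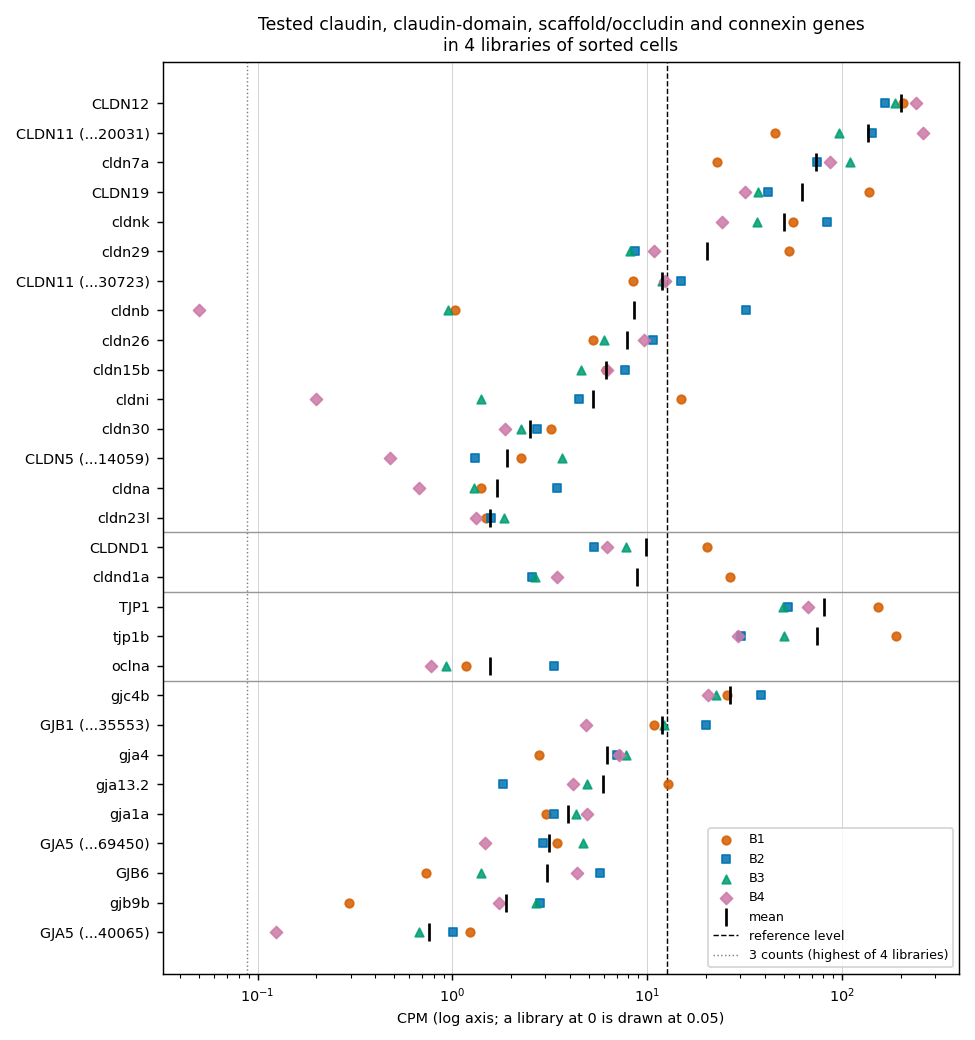
Level of each of 29 tested genes in B1 to B4 (coloured symbols) and their mean (black bar) in CPM on a log axis, by family, with the reference level dashed and 3 counts dotted. CLDN12 ran from 166 to 238 CPM, whereas cldnb was at 32.2 CPM in B2 and 0 CPM in B4, drawn at the left edge.

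Of the remaining tested claudins, 4 passed in neither direction. cldn29 (ENSDARG00000009215) was at 53.4 CPM in B1, 8.67 CPM in B2, 8.18 CPM in B3 and 10.8 CPM in B4, a mean of 20.3 CPM that fell to 9.22 without B1, where the sign of its log2 level turned (0.68 with all libraries, -0.45 without B1, neither passing). cldni, at 14.9 CPM in B1, 4.47 CPM in B2, 1.40 CPM in B3 and 0.200 CPM in B4, had a mean of 5.24 CPM, and it passed as low by limma-voom and without B1, where its mean was 2.02 CPM. Both were highest in B1. cldnb, a claudin of zebrafish surface epithelium and the lateral line, was at 1.03 CPM in B1, 32.2 CPM in B2, 0.950 CPM in B3 and 0 CPM in B4. B2 alone was far above 1 CPM, and its mean of 8.54 ± 15.8 CPM was 0.658 without B2. cldn26, at 5.24 to 10.6 CPM, did not pass (log2 level -0.68, edgeR adjusted p = 0.0716), although it did by DESeq2, limma-voom and YuGene values.

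The 5 claudins below the reference level were cldn15b, cldn30, CLDN5 (ENSDARG00000014059), cldna and cldn23l, at means of 6.15 ± 1.27, 2.50 ± 0.582, 1.92 ± 1.36, 1.70 ± 1.20 and 1.56 ± 0.216 CPM. CLDN5 (ENSDARG00000014059) is the copy of claudin 5 that the rule keeps. It was at 2.26 CPM in B1, 1.30 CPM in B2, 3.63 CPM in B3 and 0.475 CPM in B4, highest in B3, at a log2 level of -2.72 ± 0.48 (edgeR adjusted p = 0.00714). Endothelial markers, without either claudin 5 copy, summed to 119 CPM in B1, 106 CPM in B2, 83.6 CPM in B3 and 94.3 CPM in B4, another order of libraries. The marker kdrl put B1 first in that sum, at 49.8 CPM there and 7.16 to 20.6 CPM elsewhere. Of 10 tested endothelial markers 7 lay below the reference level (against 33.2% of all tested genes) and 1 above (against 36.8%). None of the 11 was at 0.

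The claudin-domain genes encode more distant tetraspan proteins. CLDND1 (ENSDARG00000052386) was at 20.2 CPM in B1, 5.31 CPM in B2, 7.74 CPM in B3 and 6.23 CPM in B4, and cldnd1a (ENSDARG00000104439) at 26.6 CPM in B1, 2.57 CPM in B2, 2.65 CPM in B3 and 3.45 CPM in B4. Both were highest in B1. With B1 left out, CLDND1 averaged 6.43 CPM and cldnd1a 2.89 CPM, and both passed as low.

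Among the scaffolds, TJP1 and tjp1b are the 2 copies of the gene of ZO-1. TJP1 (ENSDARG00000077506) stood at 153 CPM in B1, 52.9 CPM in B2, 49.8 CPM in B3 and 66.5 CPM in B4. The other copy, tjp1b (ENSDARG00000079374), stood at 189 CPM in B1, 30.2 CPM in B2, 50.03 CPM in B3 and 29.3 CPM in B4. Both were highest in B1, with means of 80.5 ± 48.7 and 74.6 ± 76.7 CPM, and the mean of tjp1b was 36.5 CPM without B1. Their log2 levels were 2.67 ± 0.33 (edgeR adjusted p = 9.15e-05) and 2.56 ± 0.49 (0.00092).

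Occludin, a part of epithelial and endothelial tight junctions, and ZO-3, a part of epithelial ones, were low. oclna was at 1.17 CPM in B1, 3.33 CPM in B2, 0.922 CPM in B3 and 0.776 CPM in B4, highest in B2, and lay below the reference level (log2 level -3.03 ± 0.44, edgeR adjusted p = 0.0037). Its mean of 1.55 CPM was 0.957 without B2. oclnb, at 0 to 0.271 CPM, and tjp3, at 0.391 to 1.46 CPM, did not reach the minimum for testing.

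Summed over its members, the scaffold and occludin family had 385 CPM in B1, 137 CPM in B2, 148 CPM in B3 and 147 CPM in B4. The claudins and claudin-domain genes summed to 615 CPM in B1, 617 CPM in B2, 521 CPM in B3 and 696 CPM in B4. Connexins summed to 74.7 CPM in B1, 90.9 CPM in B2, 66.4 CPM in B3 and 52.7 CPM in B4. The genes left out by the rule, CLDN5 (ENSDARG00000043716) and GJA1 (ENSDARG00000041799), are not in these sums. The sum of scaffolds was thus highest in B1 by a wide margin, while the claudin sums averaged 612 ± 71.7 CPM although single claudins differed more.

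**Figure D3:**
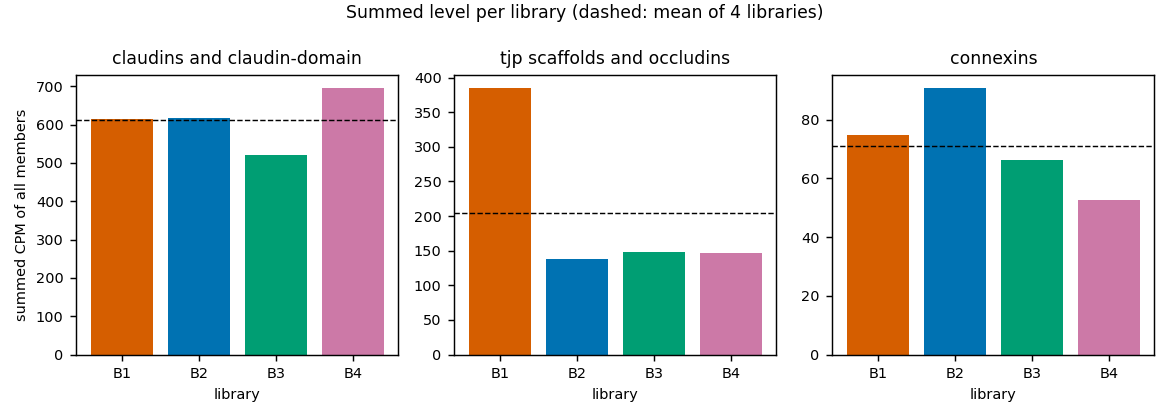
Summed CPM of all members of each family kept by the rule in each library, with the mean of the 4 libraries dashed. CLDN5 (ENSDARG00000043716) and GJA1 (ENSDARG00000041799) are not in the sums. The scaffold and occludin sum of 385 CPM in B1 stands over sums of 137 to 148 CPM elsewhere, and the claudin sums run from 521 to 696 CPM.

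Among the connexins kept by the rule the 1 gene above the reference level was gjc4b (ENSDARG00000007099). It was at 25.8 CPM in B1, 38.2 CPM in B2, 22.5 CPM in B3 and 20.4 CPM in B4, a narrow range with B2 the highest. The mean was 26.7 ± 7.98 CPM and the log2 level 1.08 ± 0.23 (edgeR adjusted p = 0.0035). It made up 37.2 ± 3.84% of the summed level of the connexins kept by the rule, a sum without GJA1 (ENSDARG00000041799). Within each library it was higher than the next of these connexins, GJB1 (ENSDARG00000035553), by 1.28 ± 0.54 log2 units.

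GJB1 encodes connexin 32, found in myelinating glia of mammals. GJB1 (ENSDARG00000035553) was at 10.8 CPM in B1, 19.9 CPM in B2, 12.1 CPM in B3 and 4.85 CPM in B4, highest in B2, and did not pass (log2 level -0.08 ± 0.34, edgeR adjusted p = 0.839). The second GJB1 copy, ENSDARG00000058064, had a mean of 0.227 CPM and was not tested.

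Other connexins lay below the reference level. gja4, the gene of connexin 37, which is found in arterial endothelium and mural cells of the mouse, was at 2.78 CPM in B1, 6.96 CPM in B2, 7.79 CPM in B3 and 7.18 CPM in B4. B1 was the lowest, and the log2 level of -1.03 ± 0.31 (edgeR adjusted p = 0.0322) did not pass when B2, B3 or B4 was left out. The copies of GJA5, the gene of connexin 40 of arterial endothelium, had means of 3.12 ± 1.32 CPM for ENSDARG00000069450 and 0.757 ± 0.480 CPM for ENSDARG00000040065. GJB6, the gene of connexin 30, an astrocyte connexin in mammals, was at 0.732 CPM in B1, 5.69 CPM in B2, 1.40 CPM in B3 and 4.35 CPM in B4, so B2 and B4 were high and B1 and B3 low. The gene gja1a, the other zebrafish copy of the connexin 43 gene, stood at 3.02 CPM in B1, 3.30 CPM in B2, 4.33 CPM in B3 and 4.93 CPM in B4, close to each other, at a log2 level of -1.70 ± 0.26 (edgeR adjusted p = 0.00305). Also below the reference level was gjb9b, at a mean of 1.88 ± 1.16 CPM. gja13.2 (12.8 CPM in B1, 1.81 CPM in B2, 4.92 CPM in B3 and 4.18 CPM in B4) did not pass, but passed as low by DESeq2, limma-voom and YuGene values and without B1, where its mean was 3.64 CPM.

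The connexin of electrical synapses, connexin 36, is encoded by GJD2. Its copies were not tested. ENSDARG00000067999 had 54 counts in B1 (1.58 CPM), 2 in B2, 1 in B3 and 0 counts in B4, and ENSDARG00000070781 had 47 counts in B1 (1.38 CPM), 0 in B2, 0 in B3 and 3 counts in B4. Both were thus at or under the floor of 3 counts outside B1.

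The 48 genes that were not tested had means of at most 1.72 CPM. Of all 81 genes, 37 had more than 3 counts in each library, 7 had more than 3 counts in none, and 3 (cldnf, CLDN23 and gjd6) had 0 counts in all 4, which allows levels of up to 0.0751 to 0.0879 CPM depending on the library. Among claudins of epithelia that were not tested, cldn1 ran from 0 to 0.704 CPM. CLDN2, the pore-forming claudin of leaky epithelia, had 1 count in B1, 0 in B2, 0 in B3 and 8 counts in B4. Of the claudin 10 copies, which form ion pores, cldn10d, cldn10e, cldn10l2 and CLDN10 (ENSDARG00000104528) had means of 0.253, 0.0830, 0.0220 and 0.0293 CPM. CLDN10 (ENSDARG00000058937) had 1 count in B1, 70 in B2, 1 in B3 and 5 counts in B4.

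Spread between libraries was compared as a description. The median coefficient of variation of the 33 tested genes was 63.4%, against 38.4% of all tested genes. The median of edgeR's fitted variation between libraries beyond counting error was 0.596, against 0.477. The sets were not matched for level, and the 33 had the lower median level. In B1 8 of the 33 were at least 3 times the median of the other libraries, against 12.4% of all tested genes. Among them were tjp1b, CLDN19, cldn29, CLDND1, cldnd1a, gja13.2 and cldni. In B2 this held for 3 of 33 (cldnb, GJB6 and oclna), against 1.75% of all tested genes, and in B3 and B4 for none. A single library lay apart from the other 3, by a gap of most of the range, in 10 of the 33, against 16.6% of all tested genes. No test was made of these shares.

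**Figure D4:**
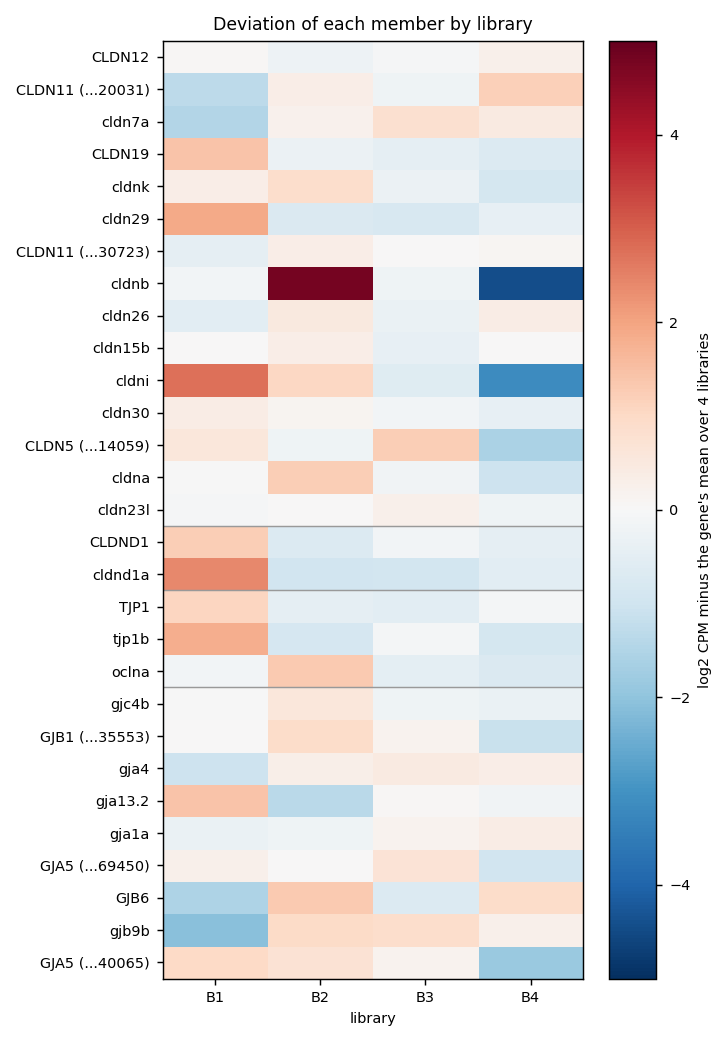
Log2 CPM of 29 tested genes in each library minus each gene's mean over the 4 libraries (prior count 2; red high, blue low). The column of B1 is red for CLDN19, cldn29, cldni, cldnd1a and tjp1b and blue for the first CLDN11 copy, cldn7a and gjb9b, and cldnb is red in B2 alone.

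Markers of other cell types differed between the same libraries. The 15 neuronal marker IDs summed to 732 CPM in B1, 166 CPM in B2, 173 CPM in B3 and 278 CPM in B4. Of these, 12 were highest in B1 (against 36.0% of all tested genes), with 1 at 0 in B1 and 2 at 0 in B3. The genes high in B1 in this family, GJD2 included, share that library with the neuronal markers. Other lists had their highest sum there too. Pericyte markers summed to 2131 CPM in B1, 1489 CPM in B2, 1079 CPM in B3 and 823 CPM in B4. Of these, KCNE4 stood at 955 CPM in B1 and 98.9 to 116 CPM elsewhere. Without KCNE4 the pericyte sum would be highest in B2. Lymphatic markers summed to 352 CPM in B1 and endothelial markers to 119 CPM. Of the latter, kdrl stood at 49.8 CPM in B1 and 7.16 to 20.6 CPM elsewhere. Without kdrl the endothelial sum would be highest in B4. Smooth muscle, fibroblast, radial glia, oligodendrocyte, microglia, epithelial and ependyma sums were highest elsewhere. The part of any of these cells in those levels was not tested. The 9 oligodendrocyte markers, cldnk left out, summed to 2323 CPM in B1, 3978 CPM in B2, 1752 CPM in B3 and 1383 CPM in B4, with none at 0. This is the order of libraries of cldnk, although mbpa, at 2595 CPM in B2, carried the sum there. Of the 9 markers 6 were highest in B1 (against 36.0% of all tested genes). The first CLDN11 copy had another order, with B4 highest. The part of myelinating cells in these levels was not tested.

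Of the 7 epithelial markers 3 were highest in B2 (against 24.8% of all tested genes). The epithelial adhesion gene epcam was at 2.02 CPM in B1, 29.1 CPM in B2, 0.866 CPM in B3 and 0 CPM in B4, values close to those of cldnb. The epithelial cadherin gene cdh1 was at 1.35 CPM in B1, 3.52 CPM in B2, 0.112 CPM in B3 and 0.0250 CPM in B4. In the same library cldn7b, oclna, cldnj (2.49 CPM in B2, no other library over 0.279 CPM), CLDN10 (ENSDARG00000058937), cldn3c (1.00 CPM) and cldn3d (0.948 CPM) were at their highest. cldn3c, cldn3d and cldnj were singled out after their values were seen. Of the 33 tested family genes 12 were highest in B2 (36.4%, against 24.8% of all tested genes). Among these were also gjc4b, cldnk and GJB1 (ENSDARG00000035553), whereas the epithelial claudin cldn7a was highest in B3. The whole epithelial list, which holds keratins too, summed to 338 CPM in B1, 499 CPM in B2, 651 CPM in B3 and 583 CPM in B4, so its sum was highest in B3, while 2 of its genes were highest in B1 and 2 in B3. The part of epithelial cells in these levels was not tested.

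**Figure D5:**
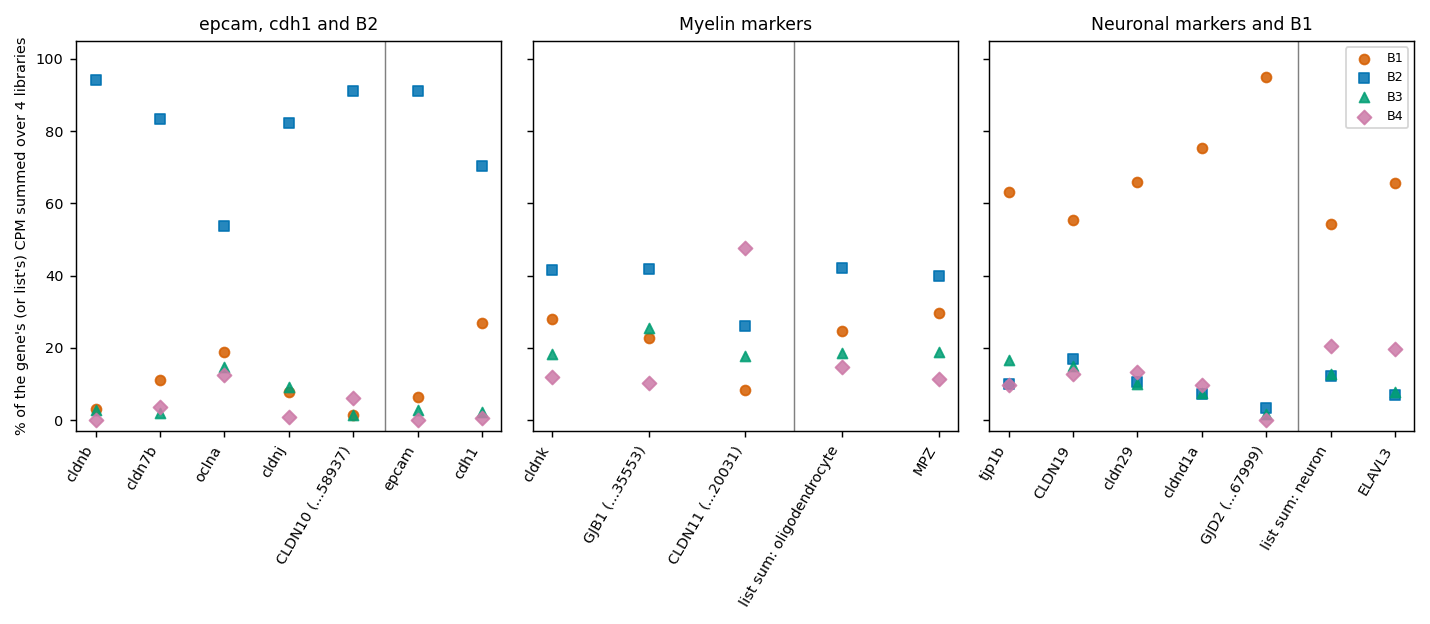
Share of each gene's CPM, summed over the 4 libraries, that lies in each library, for genes of the family (left of each grey line) and markers or summed marker lists (right of it), all chosen after their values were seen. B2 holds most of cldnb and of epcam, and B1 most of tjp1b, CLDN19, cldn29, cldnd1a and GJD2 (ENSDARG00000067999) and of the neuronal sum of 732 CPM. The pericyte sum, not drawn, was highest in B1 too, through KCNE4 at 955 CPM there.

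Position was compared with level through the gene order of RefSeq's assembly GRCz12tu, which is not the build of the counts and was used only for which genes are neighbours. Of the 81 genes 60 had a place in it, and 16 of these lay directly beside another in 5 runs. In the run of cldn3c, cldn3d, cldnb, cldn29 and cldnd, the neighbours cldnb and cldn29 were high in different libraries, B2 and B1, and cldnd stood at a mean of 0.119 CPM. In the run of cldnj, cldne, cldnf and cldna only cldna was tested, at 1.70 CPM, and cldnf had no counts. Of the connexin neighbours gja13.2 and gja12.2, the means were 5.92 and 0.124 CPM, and in the run of gja12.1, gja13.1 and gja11 all were under 0.05 CPM.

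Within each family, neighbours in the order of log2 level were compared within libraries. Of 30 such pairs 6 differed by more than the SD of the difference and 5 were one way in 4 of 4 libraries. Most neighbours in the order thus did not differ beyond their spread. The order came from these same libraries, so small differences between neighbours are in part built in. CLDN12 exceeded the first CLDN11 copy by 0.81 ± 1.02 log2 units, in 3 of 4 libraries, and TJP1 exceeded tjp1b by 0.42 ± 0.69 log2 units, in 2 of 4. The exact two-sided sign-flip permutation test on 4 libraries cannot reach 0.05, since 2 of its 16 sign patterns are always as extreme, and its smallest adjusted p over the 30 pairs was 0.75.

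Other genes of cell junctions were taken from a list of 64 entries, of which 12 found no ID, giving 50 IDs, 41 of them tested. By the same edgeR test 13 of the 41 lay above the reference level (against 36.8% of all tested genes) and 15 below it (against 33.2%), counts close to those shares, and their median log2 level was -0.57. Cytoplasmic adaptors and polarity proteins had 11 above and 8 below of 25, tricellular junction genes 1 above and 3 below of 6, junctional adhesion molecules 1 above and 2 below of 6, and pannexins, channel proteins unrelated in sequence to connexins, 0 above and 2 below of 4 (0 and 2 at an unadjusted p under 0.05). By DESeq2 the genes below were 5 for tricellular junctions, 4 for adhesion molecules and 3 for pannexins (0 pannexins above), and 8 for adaptors and polarity proteins. The beta-catenin gene CTNNB1 led, at 1195 CPM in B1, 535 CPM in B2, 667 CPM in B3 and 714 CPM in B4. It was followed by the alpha-catenin gene ctnna1 at a mean of 78.2 ± 39.0 CPM, the Crumbs polarity gene crb2b at 76.3 ± 54.5 CPM, the junctional adhesion gene JAM3 at 71.9 ± 34.8 CPM and the angiomotin-like gene AMOTL2 at 69.1 ± 17.8 CPM. JAM3 was at 36.6 CPM in B1, 49.2 CPM in B2, 91.4 CPM in B3 and 110 CPM in B4. Lowest of the tested were the tricellular junction genes lsr (1.08 CPM in B1, 3.41 CPM in B2, 0.0559 CPM in B3 and 0.375 CPM in B4) and ildr1b, at a mean of 1.25 CPM, and the cingulin gene cgnb, at 1.28 CPM. lsr was highest in B2, as cldnb, cldn7b and oclna were.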

How the data were processed

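Sequencing measured RNA in 4 libraries of 1 group. Raw read counts for each Ensembl gene were deposited as whole numbers. A second deposited table holds YuGene values, a within-library score from 0 to 1. The submitters' processing notes name GRCz10, bcl2fastq and R 3.2.2; the aligner, the counter and the use of strand are not stated in any source at hand. Symbols, many in human style, matched 26269 of 32105 IDs. Of the columns, 0 were left out.

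Counts were scaled by TMM in edgeR 4.0.16 (R 4.3.3; factors 0.948 to 1.04). A gene was tested if 2 or more libraries reached 1 CPM. edgeR's quasi-likelihood method, with 1 mean per gene, compared each level with the median fitted level, two-sided, with Benjamini-Hochberg adjustment at 0.05 over 17283 genes; F came from the drop in deviance. The script was tested on simulated data. Levels per kilobase were planned, but no transcript lengths were at hand, so CPM was used. Alternatives were median-of-ratios factors, other count minimums, DESeq2 1.42.0, limma 3.58.1 (voom, and on YuGene values) and leaving out each library. The other count minimums, DESeq2 and voom kept the main reference level. The remaining alternatives took the median of their own fit.

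Genes, lists and tests were chosen with earlier results of these data known. Values are given for genes with a mean of at least 5 CPM, for tested genes with a mean of at least 1 CPM and a highest library at least 3 times the median of the others, and for genes of textbook cell types; of the junction list, for the 5 highest and 3 lowest tested. No pair of libraries matched within sampling noise (chi-square per degree of freedom at least 142). Reads from amplified RNA are not separate molecules, and floors cover counting error alone. Some tested genes enter the counts and sums, but their own values are not reported here or drawn.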

Additional observations from a re-analysis of the deposited data

Results flagged for a closer look

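In 9 of the tested genes described here 1 library lay apart from the other 3, the gap to the nearest divided by the range exceeding Dixon's 95% critical value for 4 samples. Chance flags about 1 group in 20 where values are normally distributed, which CPM need not be. Of all tested genes 16.6% exceeded this critical value. B1 was the high library of TJP1 (153 CPM, nearest 66.5), tjp1b (189, nearest 50.03), CLDN19 (137, nearest 41.8), cldn29 (53.4, nearest 10.8), CLDND1 (20.2, nearest 7.74) and cldnd1a (26.6, nearest 3.45). B1 was the low library of gja4, at 2.78 CPM with the nearest at 6.96. B2 was the high library of cldnb (32.2 CPM, nearest 1.03) and oclna (3.33 CPM, nearest 1.17). Without the library apart, the means fell to 36.5 CPM for tjp1b, 36.7 for CLDN19, 9.22 for cldn29, 6.43 for CLDND1, 2.89 for cldnd1a, 0.658 for cldnb and 0.957 for oclna.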

How the results depend on the processing

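The counts of 9 family genes, 13 junction partners and 5 claudins above the reference level were the same under every alternative tried. With other count minimums, DESeq2 or voom the reference level was held at 12.6 CPM. Another minimum mainly added or removed low genes, so it could hardly change these counts. Counts below the reference level followed the minimum for testing, since fewer or more low genes were tested against the same 12.6 CPM. With no filter 60 family genes, 30 connexins and 24 partners lay below. With 1 CPM asked in all 4 libraries 7, 3 and 9 did. The median of the genes then tested was not used for these counts. Leaving out each library gave 10 to 17 family genes, 5 to 8 connexins and 12 to 18 partners below, with 5 connexins without B2 and 5 without B3. Neighbour pairs one way in every library were 5 with all 4 libraries and 6 to 11 with 1 left out. That count cannot fall when a library is left out, since the same pairs were kept and fewer libraries had to agree. Of 254 recomputed levels of single named genes, 231 kept direction and call, 9 lost the call, 11 gained it and 3 changed sign; the cause was not tested. The 3 passed neither before nor after. Runs in which a gene was not tested or had no adjusted p are not among the 254. Of 10 alternatives cldnb had 6, oclna 7 and GJA5 (ENSDARG00000040065) 6. Leaving out B1 or B2 is missing for all of these. With 1 library left out, the log2 level ran from -0.45 (without B1) to 0.86 for cldn29, from -0.29 to 0.048 (without B1) for CLDN11 (ENSDARG00000030723) and from -0.53 to 0.093 (without B4) for GJB1 (ENSDARG00000035553). cldn15b lost its call without B3 (adjusted p = 0.0516). When 1 library was left out, CLDN12 kept 31.5 to 34.5% of the claudin CPM. TJP1 kept 37.2 to 41.1% and gjc4b 35.6 to 38.4% of their families' CPM. The genes left out by the rule are not in these shares. Levels per kilobase, and the alternatives that change the length used, were not run. No paired analysis was possible because there is 1 group and nothing to pair. Depth limits the 48 untested genes, of which 7 had no library over 3 counts.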
